A study of Homo sapiens with 12 samples.

Results

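The BCL2 family apoptosis genes examined here are BCL2L1, MCL1, BAX, BAK1, BAD, BID, BBC3, BCL2L11, BCL2L12 and BCL2L13, 10 genes chosen by name out of 20050 protein-coding genes with a position on GRCh38. Acetylated RNA immunoprecipitation sequencing (acRIP-seq) pulls down RNA fragments that carry N4-acetylcytidine (ac4C), and stretches enriched by the antibody are listed as peaks. SW620 cells, a line from a human colorectal tumour, gave 3 control libraries (shControl, genotype WT) and 3 libraries of cells carrying an shRNA against NAT10 (shNAT10, genotype NAT10 knockdown), the enzyme that writes ac4C. Per the methods, stable lines were made with lentiviral shRNA and puromycin selection, and which of the 2 shRNAs named there these libraries carry is not given. The libraries of a group are numbered repeats and no source used here says that they came from separate cultures, so p-values measure only the spread between these libraries. A peak was counted for a gene when its midpoint lay in the gene span on the strand of the gene, and positions are 1-based on GRCh38. By this rule the 10 genes held 83 peaks in 23 merged regions, of 41755 regions in all.

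Proteins of the BCL2 family decide whether the outer membrane of mitochondria is opened during apoptosis. Pro-survival members such as BCL-XL (BCL2L1) and MCL1 hold the pore-forming effectors BAX and BAK (BAK1) in check. BH3-only proteins, among them BID, BIM (BCL2L11), PUMA (BBC3) and BAD, relieve this check or activate the effectors, after which cytochrome c leaves the mitochondria and caspases are activated. In colorectal cancer cells these proteins help to set the response to many cytotoxic drugs.

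The libraries listed between 17877 and 28752 peaks, with most in knockdown replicate 1. Each peak carries a score of unstated scale with a lowest value near 50, and it is used here only as a percentile within its own library, where 100 is the highest. The lists hold no read counts, so depth is unknown and an unlisted peak means only that none passed the authors' threshold. Within NAT10 itself, 1, 0 and 2 peaks were listed in control replicates 1, 2 and 3 and 2, 0 and 1 in the knockdown replicates, which does not measure NAT10 mRNA and so does not check the knockdown. Of 10 markers of colorectal epithelial cells, 7 had a peak and 5 had one in all 6 libraries, while CDX1, KRT18 and KRT20 had none. Of 10 markers of other cells, 4 (DES, VWF, GFAP and COL1A1) were marked in some library and 0 in all 6. A gene without a listed peak can still be expressed.

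The median midpoint of the member peaks lay at 14.94% of the span, against 44.79% over all assigned peaks, while the share of peaks that held the start of the span was about alike, 14.5% against 13.0%. For 12 of the 78 peaks in members with a start in the RefSeq promoter table (GRCh38.p14), the 5′ edge fell exactly on an annotated transcription start, 15.4% against 2.38% of all assigned peaks of genes in that table, a description with no test, since the same site recurs across libraries and all 12 peaks lay in BCL2L11 and BID. The first 30 transcribed bases are shown for 5 of the 8 member starts that a peak held, namely those of BCL2L11 and BAK1, both BID starts that were the 5′ edge of a peak, and the BCL2L13 start that a peak held in 3 libraries, and for BAX, a member with no peak, to show starts inside and outside listed peaks. A repeat of CNN units, where N is any base, has been described around ac4C sites. Capitals mark each match to 3 CNN units followed by a closing C, searched on the transcribed strand only.
BCL2L11, chr2:111120914-111120943, plus strand: acttcgctccgcgcagccgcctggtctgca
BAK1, chr6:33580247-33580276, minus strand: acagagCAACTTCCTCtagagggagctgat
BID, upstream start, chr22:17774466-17774495, minus strand: gaaggaggaagcgcgcggggcgccataagg
BID, second start, chr22:17774013-17774042, minus strand: gaggggccgaggccagccccggagaggaga
BCL2L13, chr22:17638584-17638613, plus strand: gcaatcagatttgggcgggctaggagggtt
BAX, chr19:48954875-48954904, plus strand: gcgCTGCGGCCGCccgcgcggacccggcga
Peaks held the BCL2L11 and BAK1 starts in all 6 libraries. The 3 held starts not shown lie at 17773983 and 17774469 in BID and at 17638757 in BCL2L13. BID has 5 annotated starts, and upstream and second here rank only those that were the 5′ edge of a peak. The BID start farthest upstream, at 17774665, lay in no peak. Of the 18 starts annotated for 9 members (MCL1 is not in the table), 8 lay in a peak of at least 1 library and 3 carried the repeat in their first 30 bases. Those 3 were BAK1, BAX and 1 of the BCL2L1 starts, and a peak held only that of BAK1. Over 22183 starts of protein-coding genes, 19.1% carried it.

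The number of peaks in the family as a whole differed between the groups by less than the spread of the libraries. The 10 genes together held 12, 13 and 18 peaks in control replicates 1, 2 and 3 and 16, 13 and 11 in the knockdown replicates, or 14.3 ± 3.21 (SD, n = 3) against 13.3 ± 2.52 (SD, n = 3). The highest and the lowest library thus belonged to control replicate 3 and knockdown replicate 3. A gene was called when every library of one group held a peak in it and the other group held none. By this rule 0 of the 8 members with a peak were called. Of the 12282 genes with a peak, 0.334% were called for control, 0.366% for knockdown and 0.7% in either direction. With a looser rule of at least 2 more libraries in one group, BCL2L12 was the 1 member called, beside 7.67% of genes. The peak numbers of the groups overlapped in every member with a peak (0 of 8 separated). Over all genes with a peak they were separated in 2.22%, 0.651% with more in control and 1.57% with more in knockdown. All tests here are two-sided. With 3 against 3 libraries neither Fisher's exact test on presence nor the exact permutation test on values can go below p = 0.1, so no gene could pass 0.05. The median difference in peaks per library, knockdown minus control, was 0 over the 8 members with a peak and 0 over all genes with a peak.

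**Figure D1:**
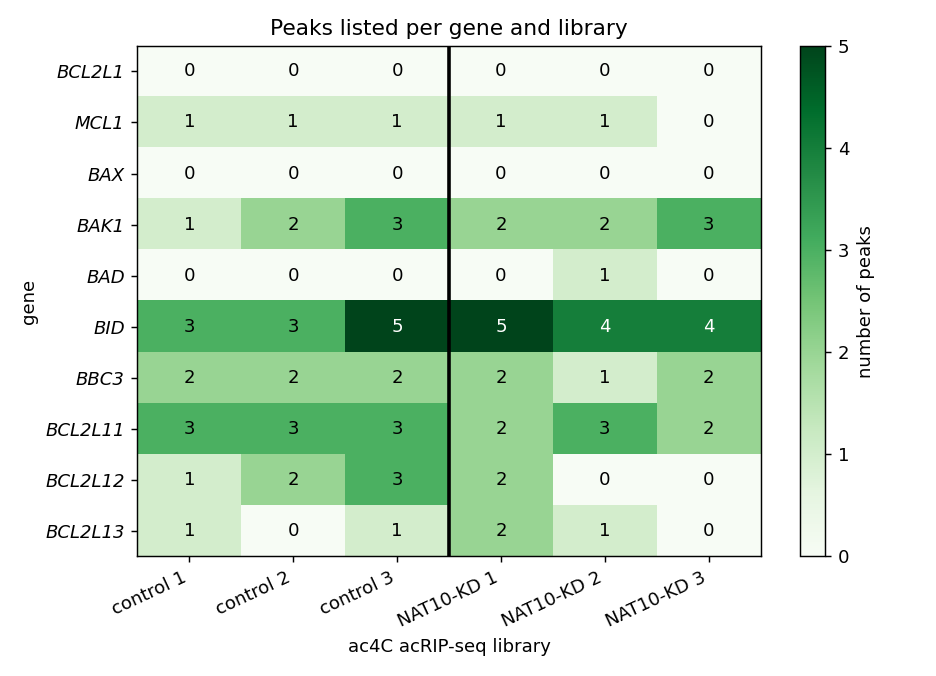
Number of listed ac4C peaks (colour and digit) in each BCL2 family gene (rows) and each library (columns), with the black line between 3 control and 3 NAT10-knockdown (NAT10-KD) libraries. BCL2L1 and BAX are at 0 throughout, BID reaches 5, and BCL2L12 has peaks in every control library but in knockdown replicate 1 alone of its group.

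Of the pro-survival members, MCL1 had a listed peak and BCL2L1 had none. MCL1, a short-lived protein that sequesters BH3-only proteins and BAK, had a single peak with the same edges in each of 5 libraries, from 150578843 to 150579590 on chromosome 1 (minus strand), 20 to 767 bases after the start of its span. The peak stood at the 49.96, 29.1 and 50.7 score percentile in control replicates 1, 2 and 3 and at the 59.5 and 36.3 percentile in knockdown replicates 1 and 2. Knockdown replicate 3 listed no MCL1 peak, and the ranks of the remaining libraries overlapped between groups (Fisher's exact test on presence, p = 1). BCL2L1, whose long isoform BCL-XL protects epithelial cells from death, had 0 peaks in all 6 libraries across a span of 59.512 kb.

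The effectors divided the same way, with peaks in BAK1 and none in BAX. BAX had 0 peaks in all 6 libraries across 6.924 kb. BAK1, a resident of the outer mitochondrial membrane, held 1, 2 and 3 peaks in the controls and 2, 2 and 3 after knockdown. Its strongest peak ran from 33580025 to 33580293 on chromosome 6 (minus strand), from 17 bases before to 251 bases after the start of the span, over the sequence with the marked repeat above. Its score percentile was 41.5, 34.0 and 59.8 in the controls and 80.9, 55.7 and 58.7 after knockdown. The groups overlapped, since control replicate 3 lay above 2 of the knockdown libraries (exact permutation test, p = 0.3).
A second BAK1 peak, from 33575298 to 33575441, was weak or unlisted in control and mid-ranked in every knockdown library. It was not listed in control replicate 1, stood at the 8.95 and 18.1 percentile in control replicates 2 and 3, and stood at 62.6, 43.8 and 41.2 in knockdown replicates 1, 2 and 3. A small BAK1 peak, from 33577535 to 33577635, was listed only in control replicate 3 and knockdown replicate 3, at the 18.6 and 16.5 percentile.

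**Figure D2:**
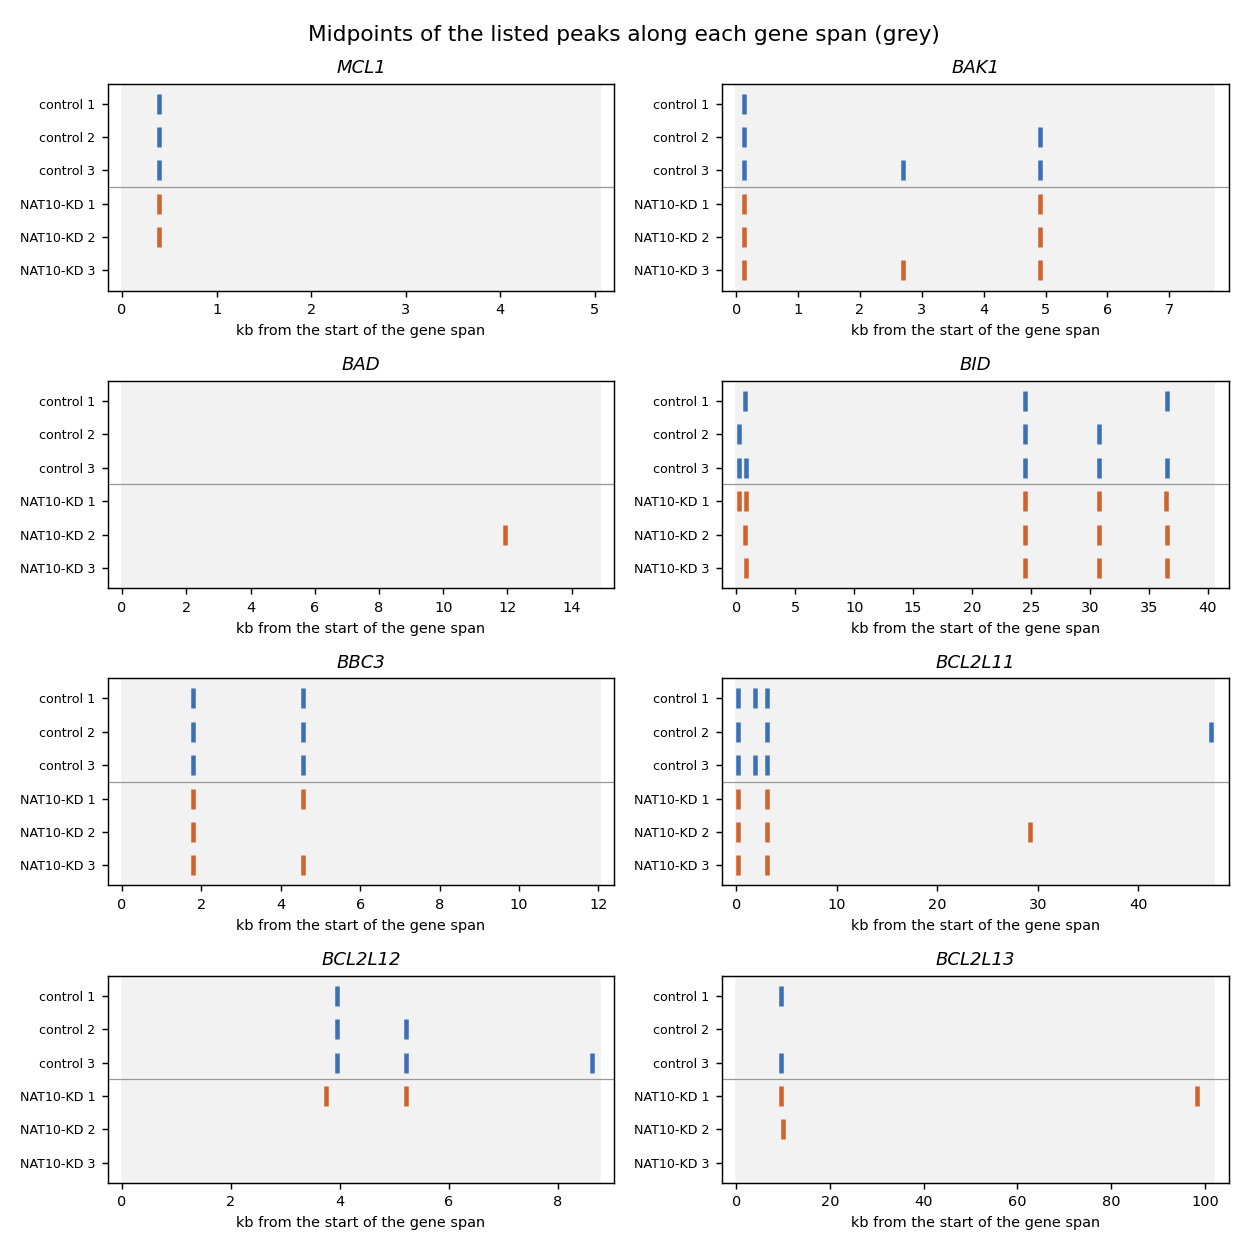
Midpoints of listed peaks (ticks, peak width not drawn) along the span of the 8 BCL2 family genes with a peak (grey, in kb from the 5′ start of the span, each panel on its own scale), with 1 lane per library. The BBC3, BAK1 and BID peaks recur at the same places in both groups, and the BCL2L12 lanes of knockdown replicates 2 and 3 are empty.

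The BH3-only genes BID, BCL2L11 and BBC3 carried peaks in all 6 libraries and BAD hardly any. BID, which caspase 8 cleaves to link death receptors to mitochondria, held 3, 3 and 5 peaks in the controls and 5, 4 and 4 after knockdown (3.67 ± 1.15 against 4.33 ± 0.577, SD, n = 3, exact permutation test, p = 0.6). They fell into 5 regions on the minus strand of chromosome 22. The outermost 5′ edges of both regions at the 5′ end were annotated starts, shown above.
The peak from 17774381 to 17774495 began on the BID start labelled upstream above. It was listed in control replicates 2 and 3 and knockdown replicate 1, at the 69.2, 60.5 and 73.3 percentile. The other region, from 17773610 to 17774042, was listed in control replicates 1 and 3 at the 46.1 and 42.2 percentile and in the 3 knockdown libraries at 49.8, 65.3 and 61.1. No pair of the 5 libraries had both edges in common, although control replicate 1 and knockdown replicates 2 and 3 shared the 5′ edge at 17774042 and control replicate 3 and knockdown replicate 3 the 3′ edge at 17773610. The lengths ran from 163 to 433 bases, whereas 14 of the 17 member regions found in at least 2 libraries had the same edges to the base in each library (82.4%, against 60.6% of all such regions).
Downstream, the BID region from 17738017 to 17738229, near the 3′ end of the gene, was low in control and mid-ranked after knockdown. It stood at the 4.33 and 13.3 percentile in control replicates 1 and 3, was unlisted in control replicate 2, and stood at 43.6, 45.6 and 39.2 in knockdown replicates 1, 2 and 3. The short BID peak from 17750105 to 17750174 was listed in all 6 libraries, at 40.8, 52.8 and 38.7 in the controls and 51.6, 45.6 and 44.2 after knockdown, values that overlapped (exact permutation test, p = 0.6). The peak from 17743803 to 17744013 was unlisted in control replicate 1, stood at 47.5 and 40.0 in control replicates 2 and 3, and ranged from 18.5 to 65.7 among knockdown libraries.

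**Figure D3:**
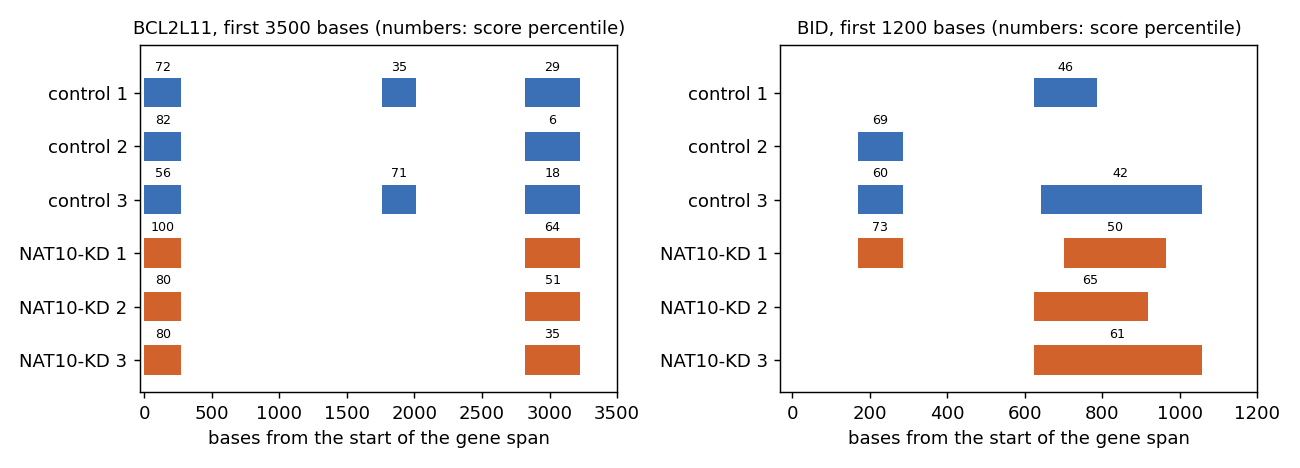
Listed peaks drawn to scale over the 5′ ends of BCL2L11 and BID (x axis, bases from the 5′ start of the span), 1 lane per library with 3 control lanes above 3 NAT10-knockdown (NAT10-KD) lanes. Digits give the score percentile of each peak, and the BCL2L11 edges are identical across libraries while the peaks of the second BID region differ in at least 1 edge between any pair of libraries.

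BCL2L11 encodes BIM, a BH3-only activator held down by ERK signaling, and its marking was densest at the 5′ end. It held 3, 3 and 3 peaks in the controls and 2, 3 and 2 after knockdown (exact permutation test, p = 0.4). The peak from 111120914 to 111121188 on chromosome 2 (plus strand) began at the first base of the annotated gene and was the highest-ranked member peak in all libraries but control replicate 3, at the 72.1, 81.8 and 56.1 percentile in the controls and 99.8, 79.9 and 79.6 after knockdown. Control replicate 2 lay above 2 knockdown libraries, so the groups overlapped (70.0 ± 13.0 against 86.4 ± 11.6, SD, n = 3, exact permutation test, p = 0.3).
The BCL2L11 peak from 111123733 to 111124139, 2819 to 3225 bases after the start, was separated between groups. It stood at the 29.2, 5.99 and 18.0 percentile in control replicates 1, 2 and 3 and at 63.6, 51.1 and 35.4 in knockdown replicates 1, 2 and 3, so that every knockdown library lay above every control library. The means were 17.7 ± 11.6 and 50.03 ± 14.1 (SD, n = 3), a difference of 32.3 percentile points (exact permutation test, p = 0.1, at the limit of the design, and 0.669 after Benjamini-Hochberg adjustment over the 9195 regions found in all 6 libraries).
Of those 9195 regions, 6.98% were likewise higher in every knockdown library and 4.05% higher in every control library, and of the 5 member regions found in all 6 libraries this BCL2L11 region was the only one separated. Leaving out 1 library cannot undo a complete separation, so that setting was no check on this region. In the upper 50% of each list by score its control peaks, all below percentile 50, drop out. It could not be compared there, and 0 member regions were separated. The mean percentile was higher in knockdown for all 5 member regions (median difference 16.4) and for 53.7% of all 9195 (median difference 0.703), a description without a test. With the 17877 highest-scored peaks of each library this did not hold for the BID peak from 17750105 to 17750174, at 39.6, 40.2 and 31.2 in the controls and 22.1, 45.6 and 40.6 after knockdown, and the BCL2L11 region was no longer listed in all 6 libraries. Between these peaks, a peak from 111122670 to 111122923 was listed at the 35.1 and 71.1 percentile in control replicates 1 and 3 and in no other library (Fisher's exact test, p = 0.4). Single peaks near the middle and the end of BCL2L11 were listed in knockdown replicate 2 and control replicate 2, at the 24.8 and 6.91 percentile.

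BBC3, which encodes PUMA, a p53 target and potent BH3-only protein, had a pair of peaks on the minus strand of chromosome 19. The peak from 47230929 to 47231194 was listed in all 6 libraries, at 41.5, 50.3 and 25.8 in the controls and 56.7, 44.2 and 47.0 after knockdown (exact permutation test, p = 0.4). The peak from 47228158 to 47228446 stood at 39.1, 48.7 and 48.97 in control and 53.3 and 36.4 in knockdown replicates 1 and 3, and was unlisted in knockdown replicate 2. Both overlapped between groups. BAD, a BH3-only protein switched off by AKT phosphorylation, had 1 peak in a single library, knockdown replicate 2, from 64272719 to 64272856 on chromosome 11 at the 5.68 percentile. A stronger peak in the BAD span, from 64270062 to 64270661, lay on the plus strand over the start of GPR137, a gene of the opposite strand. It was listed in the other 5 libraries and was not counted for BAD.

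**Figure D4:**
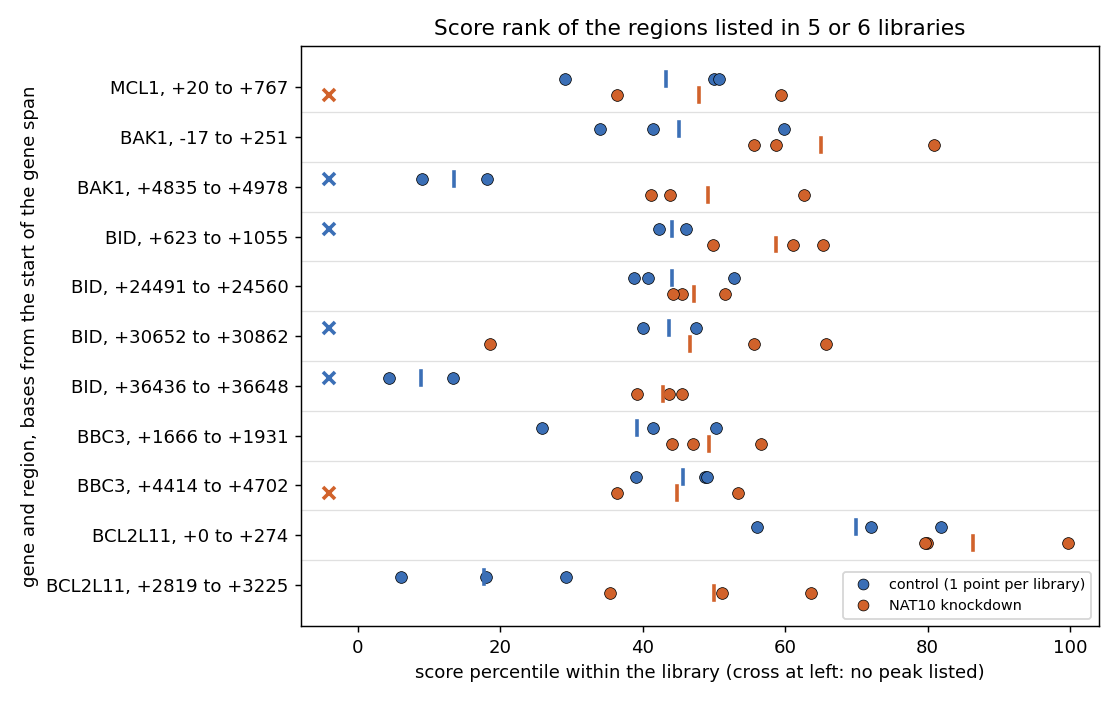
Score percentile within the library (x axis) for the 11 member regions listed in 5 or 6 libraries (rows, named by gene and bases from the start of its span), with 1 point per library, a bar at the mean of the listed values, and a cross where a library lists no peak. All knockdown points lie to the right of all control points in the BCL2L11 region at 2819 to 3225, the BID regions at 623 to 1055 and 36436 to 36648 and the BAK1 region at 4835 to 4978, and the other regions overlap.

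With an unlisted peak set to percentile 0, 11 member regions found in at least 5 libraries could be compared. The second BAK1 region, the BID region near the 3′ end and the second 5′ region of BID then joined the BCL2L11 region, so that 4 of the 11 were higher in every knockdown library and 0 in every control library, against 7.66% and 4.05% of the 12801 such regions in all. With at least 50% of the merged region covered, both BID regions dropped out and 2 of the 4 remained, BCL2L11 and BAK1. In the BID region near the 3′ end, knockdown replicate 1 listed only 65 of the 213 bases. These 4 were seen before the setting was chosen. Leaving out 1 library cannot undo a complete separation, so those 6 settings were no check on them. Their listed control peaks all lay below percentile 50 and drop out of the upper 50% of each list by score. The 4 could not be compared there, and 0 member regions were separated. The percentiles move with the length of the list, which was longest in knockdown replicate 1. With the 17877 highest-scored peaks of each library, the second 5′ region of BID stood at 19.3 in knockdown replicate 1, against 45.0 and 35.2 in control replicates 1 and 3, and no longer separated the groups, and the second BAK1 region was listed in fewer than 5 libraries. The BID region near the 3′ end then stood at 2.39 and 2.69 in control replicates 1 and 3 and 9.35, 45.6 and 35.3 in knockdown libraries. The BCL2L11 region stood at 27.7 and 8.002 in control replicates 1 and 3, was unlisted in control replicate 2, and stood at 41.5, 51.1 and 31.2 in knockdown libraries, still above control. The BBC3 peak from 47228158 to 47228446 then stood at 37.8, 35.1 and 42.7 in control replicates 1, 2 and 3 and at 24.9 and 32.2 in knockdown replicates 1 and 3, and so was higher in every control library.

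BCL2L12, a BCL2-like protein that has been described to restrain effector caspases, was the member with the largest difference in peak number when all listed peaks were counted. It held 1, 2 and 3 peaks in the controls and 2, 0 and 0 after knockdown, a mean of 2.0 ± 1.0 against 0.667 ± 1.15 (SD, n = 3), with every control library and only knockdown replicate 1 marked (exact permutation test, p = 0.3). Its peak from 49669024 to 49669164 on chromosome 19 (plus strand) was listed in all 3 control and no knockdown library (Fisher's exact test, p = 0.1, at the limit of the design). It was the only such region of the 23, while 0.34% of all 41755 regions were called for control, 0.819% for knockdown and 1.16% in either direction.
The scores behind this BCL2L12 difference were low. The peak stood at the 18.9, 1.51 and 32.2 percentile in control replicates 1, 2 and 3, so that it lay near the listing threshold in control replicate 2. Knockdown replicate 1 listed a peak just upstream, from 49668851 to 49668937, at the 37.6 percentile, 87 bases long and not overlapping the control peak. The region from 49670216 to 49670488 was listed in control replicates 2 and 3 at 11.8 and 10.3 and in knockdown replicate 1 at 38.2, and a last peak was listed in control replicate 3 alone with a score of 50.7, at the 0.778 percentile. With the 17877 highest-scored peaks per library the control-only peak was no longer called, nor was it in the upper 50% of each list by score. The difference in BCL2L12 peak number, knockdown minus control, went from -1.33 to -0.333 with the 17877 highest-scored peaks, where that of BAK1 was 0.667, and to 0 in the upper 50%, where those of BAK1 and BID were 1. Without knockdown replicate 1, BCL2L12 as a gene was called for control. That library was the only knockdown library with a BCL2L12 peak, so the call follows from leaving it out and is no check.

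BCL2L13, a protein of the outer mitochondrial membrane that serves as a mitophagy receptor, had peaks around an internal start that overlapped between groups in number and rank. Its peaks numbered 1, 0 and 1 in the controls and 2, 1 and 0 after knockdown (exact permutation test, p = 1). The region from 17638102 to 17638886 on chromosome 22 (plus strand) held peaks from 17638102 to 17638700 in control replicates 1 and 3, from 17638347 in knockdown replicate 1 and from 17638601 in knockdown replicate 2. Its percentile was 60.0 and 8.38 in those control libraries and 18.7 and 49.7 in those knockdown libraries, so that the spread within a group exceeded the difference between groups. A far downstream peak, from 17726677 to 17727641, was listed in knockdown replicate 1 alone at the 14.0 percentile.

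The genes around the family in the same pathway showed few separations. Of 16 other BCL2 family and BH3-only genes, 13 had a peak and 6 had one in all 6 libraries. By comparison, 8 of the 10 members had a peak and 4 in all 6, and 61.3% and 29.8% of all protein-coding genes did. In this list 2 genes had more peaks in every knockdown than in any control library, against 1.57% of all genes with a peak, and 0 had fewer. BIK, a BH3-only protein of the endoplasmic reticulum, held 1, 2 and 2 peaks in the controls and 4, 3 and 4 after knockdown. BNIP3L, a mitophagy receptor, held 1, 1 and 1 peaks in the controls and 2, 2 and 2 after knockdown (exact permutation test, p = 0.1 for each gene, and 1 after Benjamini-Hochberg adjustment over 12282 genes). For BIK and BNIP3L the strand was taken from the strand with most peaks in the 6 libraries, so the peaks counted also set the strand. The median difference over the 13 genes was 0.333 peaks per library. Of 27 genes of the apoptosome, caspases, inhibitors of apoptosis and death receptor signaling, 24 had a peak and 11 had one in all 6 libraries. By the rule of every library in one group and none in the other, 0 of the 27 were called, and 0 had separated peak numbers. With peaks in fewer libraries of one group alone, CASP8 held 0, 1 and 1, BIRC3 1, 1 and 0 and CASP10 0, 0 and 1 peaks in the controls and none after knockdown, and CASP2 held 1 peak in knockdown replicate 1 alone. These 4 genes were chosen after their values were seen. The share of all genes with such a pattern was not computed, so no difference between the groups can be read from them. With the looser rule of at least 2 more libraries in one group, CASP8, BIRC3 and CYCS were called for control. Over all genes with a peak, 7.67% were called in either direction. CYCS held 1, 1 and 1 peaks in the controls and 1, 0 and 0 after knockdown. The median difference over the 24 genes was 0.167 peaks per library.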

How the data were processed

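Peak lists of the 6 ac4C immunoprecipitation libraries were analysed. Input (6 libraries) was not used here. The authors deposited 1 peak list per library, named for mRNA, in which each peak has a score. Peak names follow MACS, and the build is GRCh38 per the labels. Aligner, caller version, settings and annotation are not given in the sources used here. The score has no stated scale and is 3100 in 7.61% to 13.7% of peaks, so it served only for percentiles within a library (ties at their mean rank).

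Gene spans came from the RefSeq table of GRCh38.p14 (20050 protein-coding genes). Strand came from the promoter table for 15843 genes and otherwise, as for MCL1, BIK and BNIP3L, from the strand with most peaks (2384 genes), which matched the table for 96.7% of genes that had both. No exon annotation was used. Peaks that shared 1 or more bases on a strand formed a region. Peak numbers and percentiles were compared by two-sided exact permutation tests and presence by two-sided Fisher's exact tests, with Benjamini-Hochberg adjustment over all genes or regions tested.

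Members and lists were chosen with earlier results of these data known. Named were all members, and of the other apoptosis gene lists those called or with separated peak numbers. CASP8, BIRC3, CASP10, CASP2 and CYCS were named after their values were seen. No pair of libraries shared edges and score in more than 1 peak below 3100. The code recovered 200 of 200 regions planted in simulated lists over 41755 regions. Simulated peaks had the edges of merged regions, and planted ones lay in every library of 1 group alone. This therefore checked the code only and not the merging of peaks with differing edges. Alternatives were the upper 50% of each list by score, equal peak numbers, strand ignored, any overlap, peaks in 1 gene only, 50% coverage, a difference of 2 libraries, a replicate block, and each library left out. Python 3.11.15, numpy 2.4.6, pandas 2.3.3, scipy 1.17.1 and matplotlib 3.10.9 were used.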

Additional observations from a re-analysis of the deposited data

How the results depend on the processing

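In the upper 50% of each list by score, no member region was called (0), no region found in all libraries was separated (0), also with missing peaks at 0 (0), and the difference in member peaks per library, knockdown minus control, went from -1 to 2.33. The peak number differences of BBC3 and BCL2L11 turned to 0.333 and that of BCL2L13 to -0.333. In these upper lists the regions separated in the full lists had lost every control peak and could not be compared. With equal peak numbers, 0 regions were called and 2 regions found in all libraries were separated, the BCL2L11 region at the start and the BAK1 region at the start. A difference of at least 2 libraries added BCL2L12, giving 1 gene, beside 7.67% of all genes with a peak, and gave 2 regions. With 50% of the merged region covered, 2 regions with missing peaks at 0 were separated, without those of BID. The comparison with missing peaks at 0 was chosen after seeing the data. Apart from that share of genes, shares over all genes or regions were not computed for these settings, so their counts are not set against a background.

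Leaving out 1 library in turn gave 0 to 1 called genes and 0 to 1 genes with separated peak numbers. It gave 1 to 2 called regions and 1 to 6 separated regions found in all remaining libraries (4 to 7 with missing peaks at 0). Calls and separations are reached more easily with fewer libraries. The shares over all genes and regions were not computed with 1 library left out, so these counts are not set against a background. The highest numbers of regions came without control replicate 2 (2, 6 and 7). The called gene was BCL2L12 without knockdown replicate 1, the only knockdown library that listed a BCL2L12 peak. The separated genes were BCL2L12 without knockdown replicate 1, BCL2L11 without knockdown replicate 2 and BID without control replicate 3. The difference in member peaks ranged from -2.33 to 0.833. That of BAK1 turned to -0.167 without control replicate 1, and that of BCL2L13 to -0.167 without knockdown replicate 1. The causes were not tested.

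A replicate block left the difference in member peaks at -1, as it must with equal numbers. The labels do not say whether same-numbered libraries are paired, and they were treated as unpaired. Deviations of same-numbered libraries correlated across regions at 0.0295, 0.0023 and 0.0318. No pairing was seen in these values, but they cannot show how the libraries were prepared. As depth is unknown, an unlisted peak cannot be told from a missed one.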

Other observations

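Peaks of neighbouring genes on the opposite strand lay inside the BAD span and just before that of BCL2L13. The plus-strand peak over the start of GPR137, from 64270062 to 64270661 on chromosome 11, stood at the 55.6, 56.9 and 84.4 percentile in control replicates 1, 2 and 3 and at 84.7 and 74.0 in knockdown replicates 1 and 3. Knockdown replicate 2, the library without it, was the one that listed the BAD peak. A minus-strand peak from 17628603 to 17628818 on chromosome 22, in the span of ATP6V1E1, a subunit gene of the vacuolar proton pump, lay just before the BCL2L13 span. It was listed at the 31.1 percentile in control replicate 1 and at 34.2 and 19.1 in knockdown replicates 1 and 3.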
